A study of Homo sapiens with 2 samples.

Results

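Urea cycle and arginine genes were examined in PLC8024 cells labelled as MAEL WT and MAEL KO. They are the 10 rows of the deposited count table, out of 58735, that are named CPS1, OTC, ASS1, ASL, ARG1, ARG2, NAGS, SLC25A13, SLC25A15 and GLS2. Of these, 8 had at least 10 counts in at least 1 library, as did 17887 genes of the whole table. PLC8024 is an established hepatocellular carcinoma (HCC) line, labelled as Alexander cells of the liver with epithelial morphology. The wild-type group, MAEL WT, was not treated, and the other group, MAEL KO, had MAEL knocked out with an sgRNA. MAEL is a gene known for its role in silencing transposons in the germline. By the study's methods, cells transfected with a Cas9 and sgRNA plasmid were sorted by mCherry and grown as single clones, and loss of the protein was examined by Western blot. Each group is 1 library, so no difference given here has a replicate check, and effects of the knockout, the clone, the culture and the library cannot be told apart.

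MAEL itself had 1 count in MAEL WT and 0 in MAEL KO. Neither value exceeds 3 counts, the floor taken for detection, so at this depth the transcript gives no check of the knockout label. By the study's account the line was chosen as expressing MAEL, and its blots of the cell lines measured protein. The wild-type library did not show MAEL expression at the RNA level. The libraries held 19904136 and 20833332 counts. All 10 hepatocyte markers were detected in both libraries and all were higher in MAEL KO, with a summed level of 13002 CPM, counts scaled to the library total, in MAEL WT and 25670 CPM in MAEL KO. ALB, which encodes serum albumin, went from 59 to 8550 counts. The 4 cholangiocyte markers were all lower in MAEL KO, at 12.5 CPM against 3.6 CPM, and EPCAM was at 0 there. The 4 enterocyte markers, like the hepatocyte ones, were all higher in MAEL KO, though SI had only 0 and 2 counts. The summed fibroblast, endothelial, immune, kidney epithelium and enterocyte markers were at 13.7, 17.8, 64.8, 0.904 and 69.9 CPM in MAEL WT and at 8.50, 19.5, 35.8, 0.624 and 95.2 CPM in MAEL KO. In MAEL WT a single gene gave most counts of the immune list (LYZ, 1251 of 1290) and the endothelial list (PECAM1, 348 of 354). The same held there for the enterocyte list (VIL1, 1190 of 1391) and the kidney epithelium list (PAX8, 17 of 18). Of the cholangiocyte counts, SOX9 gave 161 of 249 in MAEL WT and 73 of 75 in MAEL KO. COL3A1 gave 136 of 177 fibroblast counts in MAEL KO. CD3E, PAX2 and UMOD were at 0 in both libraries, and PTPRC had 3 and 0 counts. The part of these marker differences in the values of the urea cycle genes was not tested, and in such bulk RNA fewer cells of a type and less RNA per cell cannot be told apart.

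The urea cycle turns toxic ammonia into urea, and in the body the complete cycle runs in hepatocytes. It starts in the mitochondria, where carbamoyl phosphate is made and joined to ornithine to give citrulline. It then continues in the cytosol, where citrulline and aspartate form argininosuccinate, which is split into arginine and fumarate, and arginase releases urea and returns ornithine. NAGS makes the activator of CPS1, SLC25A15 brings ornithine into the mitochondria, SLC25A13 sends aspartate out of them, and GLS2 is the liver-type glutaminase that frees ammonia from glutamine. Tumour cells can run parts of this route for other ends, such as the making of arginine, polyamines or pyrimidines.

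In these cells the route was present in unequal pieces. ASS1 and CPS1 were among the most abundant transcripts of both libraries, whereas OTC, which encodes the step between them, had under 10 counts in each. Between the libraries, 6 of the 8 members past the count minimum were higher in MAEL KO, namely SLC25A15, SLC25A13, NAGS, ASS1, ASL and ARG1. CPS1 and ARG2 were lower. Over all genes tested, 48.0% were higher and 52.0% lower. Values per gene length are given as deposited FPKM, which is the count divided by gene length and by a library size that the authors rescaled between the libraries.

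**Figure D1:**
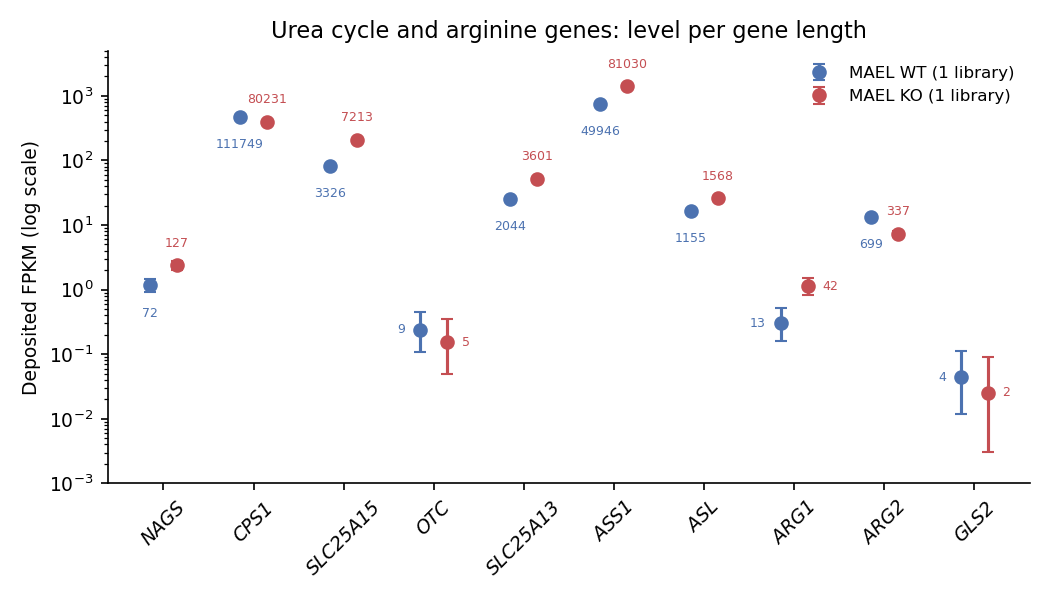
The vertical log axis gives the deposited FPKM of each of the 10 genes in MAEL WT (blue) and MAEL KO (red), ordered by role along the horizontal axis. Bars are 95% Poisson intervals that cover counting error only, and the numbers beside the points are counts. ASS1 and CPS1 lie above all other members in both libraries, and OTC and GLS2 lie lowest.

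RefSeq promoter windows, which hold 250 bases before and 50 after a gene's start on GRCh38.p14, were matched for all 10 members. They are shown to describe the members by CpG content, a feature of promoter type that plays no part in how the genes were picked. CPS1, ARG1 and OTC, which mark the mature hepatocyte, had at most 3 CpG in each window. These 3 of 10 members are near the 24.5% of 35116 windows in all, a background that counts windows and not genes. Low CpG content is thus not particular to the set. The other 7 members had 14 to 45. The stretches below, written 5′ to 3′ with every CpG in capitals, end at the base before the gene begins in the deposited table, so that they hold no base of the gene as listed there. The arginases ARG1 (chr6:131572976-131573143, plus strand) and ARG2 (chr14:67619670-67619797, plus strand) are set side by side because their counts differed in opposite directions. OTC (chrX:38352354-38352544, plus strand) is a nearly undetected member poor in CpG. SLC25A13 (chr7:96322148-96322348, minus strand) is a well-expressed member with more CpG. The reverse also occurred, since CPS1, poor in CpG, was at 474 FPKM in MAEL WT and 393 in MAEL KO. GLS2, with 14 CpG in its window, had 4 and 2 counts.
ARG1: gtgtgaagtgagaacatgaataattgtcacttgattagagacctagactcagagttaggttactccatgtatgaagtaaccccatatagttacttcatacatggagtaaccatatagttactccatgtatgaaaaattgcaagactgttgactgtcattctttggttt
OTC: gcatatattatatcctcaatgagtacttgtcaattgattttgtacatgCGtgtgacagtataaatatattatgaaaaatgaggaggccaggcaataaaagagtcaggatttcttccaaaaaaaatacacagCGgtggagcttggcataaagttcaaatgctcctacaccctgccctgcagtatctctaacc
ARG2: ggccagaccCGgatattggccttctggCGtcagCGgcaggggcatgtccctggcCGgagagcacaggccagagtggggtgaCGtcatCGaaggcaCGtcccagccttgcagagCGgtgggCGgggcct
SLC25A13: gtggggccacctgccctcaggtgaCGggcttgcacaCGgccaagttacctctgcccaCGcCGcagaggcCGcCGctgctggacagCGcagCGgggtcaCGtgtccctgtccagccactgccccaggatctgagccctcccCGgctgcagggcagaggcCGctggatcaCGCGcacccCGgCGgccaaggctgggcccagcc

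ARG1 showed no CpG in 168 bases and OTC 2 in 191, whereas ARG2 showed 9 in 128 and SLC25A13 showed 15 in 201. In the whole windows, searched on both strands, ARG2 had TGACGTCA, the full cAMP response element, at 172 and 64 bases before its RefSeq start. That element was present in 1.85% of all windows and in none of the other member windows. The first of them lies in the stretch printed above. OTC alone among the members had CAAAGTCC, a core of HNF4A sites, 56 bases before its start, against 1.20% of all windows. These matches describe letters in a window only. ARG1 and CPS1, both poor in CpG, differed in opposite directions, as did ASS1 and ARG2, both rich in it. A relation of CpG content to the direction of the difference was not tested.

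CPS1, carbamoyl phosphate synthetase 1, the rate-limiting first enzyme of the cycle, was lower in MAEL KO. CPS1 (chromosome 2, 210477682 to 210679107, plus strand) had 111749 counts in MAEL WT and 80231 in MAEL KO, or 474 and 393 FPKM. Its log2 fold change was -0.27 (95% counting interval -0.28 to -0.25), a level 1.20-fold lower, and it moved from rank 4 to rank 14 among all genes by count. Here and below, log2 fold changes are of normalised counts in MAEL KO over MAEL WT with 1 added to each. The intervals come from the exact Clopper-Pearson limits on the fraction of a gene's reads found in MAEL KO. They cover counting error only, because the reads carry no molecular identifiers and are not independent molecules. The interval of CPS1 is narrow because its counts are many, and it says nothing of the spread between cultures. The intronic transcript CPS1-IT1, on the same strand, had 86 and 127 counts, far fewer than CPS1.

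NAGS, N-acetylglutamate synthase, which makes the obligate activator of CPS1, was scarce and differed the other way. NAGS (chromosome 17, 44004546 to 44009063, plus strand) had 72 counts in MAEL WT and 127 in MAEL KO, or 1.17 and 2.37 FPKM. The log2 fold change was 1.02 (interval 0.60 to 1.47). The level of CPS1 per length was 406 times that of NAGS in MAEL WT and 165 times in MAEL KO.

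OTC, ornithine transcarbamylase, joins carbamoyl phosphate to ornithine inside the mitochondria. OTC (chromosome X, 38352545 to 38421450, plus strand) had 9 counts in MAEL WT and 5 in MAEL KO, or 0.238 and 0.153 FPKM. It lay below the count minimum, and the interval of its log2 fold change, -2.56 to 1.09, takes in differences in both directions, so none was detectable at this depth. Per length CPS1 was 1991 times OTC in MAEL WT and 2573 times OTC in MAEL KO.

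SLC25A15, the mitochondrial ornithine carrier ORC1, had the clearest increase among the abundant members. SLC25A15 (chromosome 13, 40789412 to 40810111, plus strand) had 3326 counts in MAEL WT and 7213 in MAEL KO, or 82.8 and 207 FPKM. It was 2.51-fold higher, and its log2 fold change was 1.33 (interval 1.27 to 1.39). Of all tested genes, 5.99% had a larger log2 fold change. Its intronless paralog SLC25A2, the carrier ORC2, had 0 counts in both libraries, which at a floor of 3 counts allows up to 0.151 CPM in MAEL WT and 0.144 CPM in MAEL KO.

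SLC25A13, the aspartate and glutamate carrier citrin of the liver, was higher as well. SLC25A13 (chromosome 7, 96120220 to 96322147, minus strand) had 2044 counts in MAEL WT and 3601 in MAEL KO, or 25.2 and 51.2 FPKM, and its log2 fold change was 1.03 (interval 0.95 to 1.11). Its paralog SLC25A12, aralar, which prevails in brain and muscle, had 404 and 262 counts, so its log2 fold change was -0.41. SLC25A13 therefore made up 83.5% of the counts of both carriers in MAEL WT (exact binomial interval 82.0% to 84.9%) and 93.2% in MAEL KO (92.4% to 94.0%). Such shares are taken within a library and do not depend on the scaling between libraries.

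ASS1 and ASL turn citrulline into arginine in the cytosol, and both were higher in MAEL KO. ASS1, argininosuccinate synthase, which many tumours silence, is encoded on chromosome 9 (130444929 to 130501274, plus strand). This gene had 49946 counts in MAEL WT and 81030 in MAEL KO, or 749 and 1401 FPKM, and moved from rank 22 to rank 12 by count. It was 1.88-fold higher, and its log2 fold change was 0.91 (interval 0.89 to 0.92). ASS1 is known for its many processed pseudogenes. The 10 such rows considered here summed to 75 and 54 counts, or 0.150% and 0.0666% of the ASS1 counts, and ASS1P12 held 71 and 49 of these.

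ASL, argininosuccinate lyase (chromosome 7, 66075798 to 66093558, plus strand), had 1155 counts in MAEL WT and 1568 in MAEL KO, or 16.5 and 25.9 FPKM. Its log2 fold change was 0.65 (interval 0.54 to 0.76). The pseudogene ASLP1 had 28 and 6 counts, and AC068533.4, which overlaps ASL on its strand, had 8 and 1. ASS1 exceeded ASL per length 45.3-fold in MAEL WT and 54.1-fold in MAEL KO.

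Because CPS1 and ASS1 differed in opposite directions, their balance changed. ASS1 took 30.9% of the counts of the pair in MAEL WT and 50.2% in MAEL KO, and the exact intervals of the shares do not overlap. The ratio of ASS1 to CPS1 was 2.26 times as high in MAEL KO. The 10 members together held 0.849% of the raw count total in MAEL WT and 0.836% in MAEL KO. CPS1 and ASS1 made up 95.7% and 92.6% of that. The raw totals are not rescaled by the TMM factors, 1.10 and 0.909, that the fold changes use. The shares of the total therefore do not give the change of the members on the scale of the fold changes.

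Arginase releases urea from arginine, and its liver and mitochondrial forms differed in opposite directions. ARG1, the cytosolic enzyme of hepatocytes (chromosome 6, 131573144 to 131584332, plus strand), had 13 counts in MAEL WT and 42 in MAEL KO, or 0.302 and 1.13 FPKM. Its log2 fold change of 1.82 (interval 0.98 to 2.92) was the highest of the 8 members, on the fewest counts. ARG2, the mitochondrial enzyme found in many tissues (chromosome 14, 67619798 to 67651720, plus strand), had 699 counts in MAEL WT and 337 in MAEL KO, or 13.2 and 7.35 FPKM. It was 1.79-fold lower, and its log2 fold change was -0.84 (interval -1.03 to -0.65), and 19.6% of tested genes had a lower value.

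ARG2 remained the main arginase transcript in both libraries. ARG1 held 1.83% of arginase counts in MAEL WT (interval 0.976% to 3.10%) and 11.1% in MAEL KO (8.10% to 14.7%), an odds ratio of 6.69 (exact conditional interval 3.47 to 13.8). Both genes overlap a neighbour on the other strand, and whether counting used strand is not given in the sources used here. MED23, which overlaps ARG1, had 1299 and 1191 counts, and VTI1B, which overlaps ARG2, had 1074 and 1217. Where the genes overlap, their reads cannot be told apart without strand, and MED23 had far more counts than ARG1 in both libraries.

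**Figure D2:**
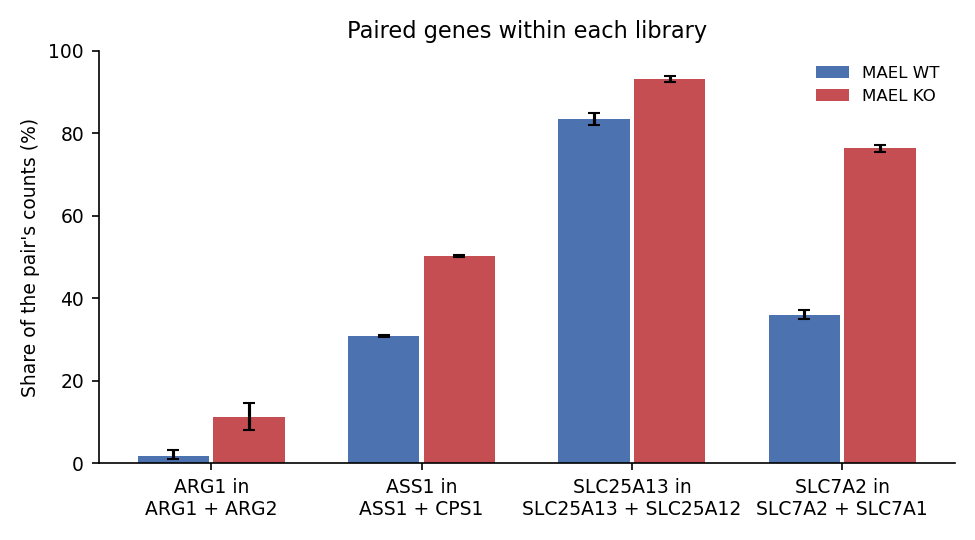
Bars give the share of a pair's counts, in percent, that fell on the first gene in MAEL WT (blue) and MAEL KO (red), with exact 95% binomial intervals for counting error. The share is higher in MAEL KO in all 4 pairs, from 1.83% to 11.1% for ARG1 and from 36.0% to 76.3% for the arginine transporter SLC7A2.

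GLS2, the liver-type glutaminase (chromosome 12, 56470944 to 56488414, minus strand), was nearly absent. It had 4 counts in MAEL WT and 2 in MAEL KO, or 0.0442 and 0.0255 FPKM, with an interval of -4.26 to 2.01 on the log2 scale. It lay below the count minimum, and since that interval takes in both directions, no difference was detectable at this depth. SPRYD4, which overlaps GLS2 on the other strand, had 142 and 160 counts.

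The order of the levels per length was the same in both libraries, from ASS1 through CPS1, SLC25A15, SLC25A13, ASL, ARG2, NAGS, ARG1 and OTC to GLS2. It did not change when the length of the principal transcript replaced the listed gene length. That length matters most for CPS1, listed at 10775 bases against 5821 for its principal transcript, which would put CPS1 at 878 and 727 FPKM. The Poisson intervals of ARG1 and OTC overlap in MAEL WT, and those of OTC and GLS2 overlap narrowly in MAEL WT and widely in MAEL KO, so these neighbours are not ordered beyond counting error.

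At the log2 threshold of 2 used in the study's methods, 0 of the 8 tested members were past it in either direction, where 2.16% of all tested genes were higher and 5.64% lower. At a threshold of 1, 4 members were higher (SLC25A15, ARG1, SLC25A13 and NAGS) against a background of 10.2%, and 0 were lower against 16.5%. SLC25A13 and NAGS lay at 1.03 and 1.02, just inside that threshold, and ASS1 at 0.91 lay just outside. The median of the 8 was 0.96, beside -0.04 over all genes tested. Scaling by total counts instead of TMM factors shifted the median of all genes by -0.27, to -0.31, and gave the members a median of 0.69. Then 2 members were above 1 (SLC25A15 and ARG1) and 1 was below -1 (ARG2 at -1.12), where the shares of all genes were 6.56% and 22.5%, and no member changed sign.

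**Figure D3:**
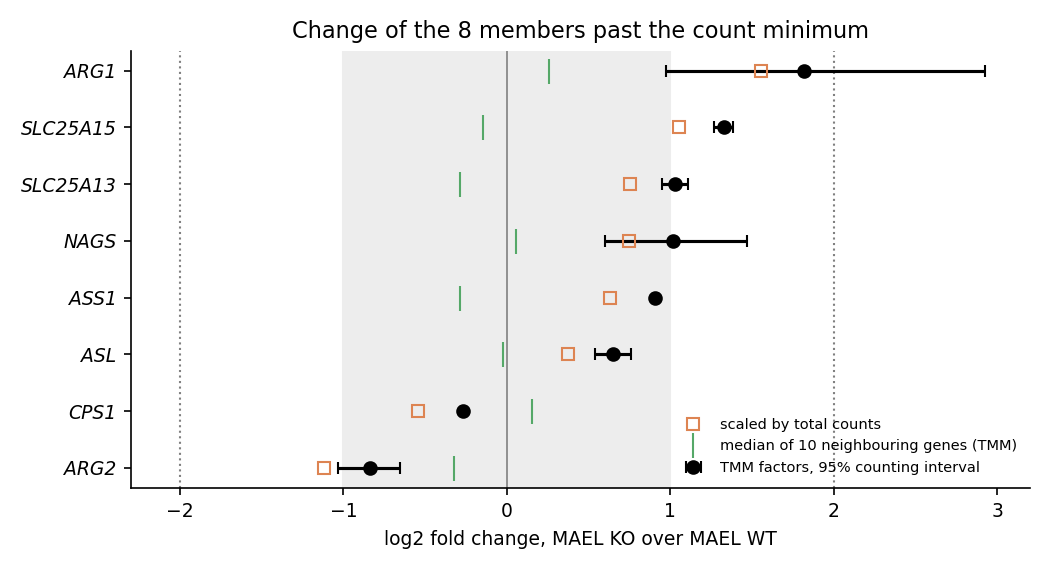
Points give the log2 fold change of MAEL KO over MAEL WT for the 8 members past the count minimum, with 95% counting intervals. Squares give the same with total counts, and ticks the median of 10 neighbouring tested protein-coding genes. The grey band spans a log2 fold change of 1 either way and dotted lines mark 2. Total counts move every member to the left without changing a sign.

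The genes around the members were examined as well. For each member, 10 tested protein-coding neighbours were taken by start position, as many on one side as on the other. Their median log2 fold change ran from -0.33 to 0.26, and that of all tested genes of a member's chromosome from -0.22 to 0.08. SLC25A15 and SLC25A13 were above all 10 of their neighbours, whose highest values were 0.96 and 0.82. How often this occurs over all genes was not counted.

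Lists of genes that feed or drain the cycle were set beside the members. So were its regulators, amino acid stress genes, and paralogs with other mitochondrial carriers. Over all 105 tested of 116 listed genes, 6 were above 2 and 9 below -2, and the median was 0.09, against 2.16% and 5.64% of all genes. The amino acid stress list alone held 4 of the 9 genes below -2. At a threshold of 1, 23 of the 105 were higher and 22 lower, against 10.2% and 16.5% of all genes. These shares are the background of each list below with TMM factors. With total counts the shares of all genes were 6.56% and 22.5%, and these are the background of the total-count values below. No list has a replicate check, and each is described by its counts and median only.

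Transcripts of the arginine transporters differed in both directions. SLC7A1, the widespread cationic amino acid transporter CAT-1, had 4730 counts in MAEL WT and 2022 in MAEL KO, so its log2 fold change was -1.02 (interval -1.09 to -0.94). SLC7A2, the form of liver and macrophages, had 2656 and 6514 counts, so its log2 fold change was 1.5 (1.44 to 1.57). SLC7A2 thus held 36.0% of the counts of the pair in MAEL WT (34.9% to 37.1%) and 76.3% in MAEL KO (75.4% to 77.2%). SLC7A9, the light chain of the cystine and dibasic amino acid transporter, had 20 and 109 counts. SLC7A3 had 15 and 0 counts, at least 4.32-fold lower in MAEL KO against 3 counts. Of 8 tested transport genes 2 were above 1 and 2 below -1, against 10.2% and 16.5% of all genes, and the median was -0.49, also with SLC7A3 at its bound. With total counts 4 were below -1.

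Among genes of arginine products and sensing, 8 of 12 tested were higher and 4 lower in MAEL KO, beside 48.0% and 52.0% of all genes. GATM, which makes guanidinoacetate from arginine and glycine, had 486 counts in MAEL WT and 1580 in MAEL KO, so its log2 fold change was 1.91, and GAMT, which methylates it to creatine, was at 1.09. CKB, the brain-type creatine kinase, had 573 and 6079 counts, so its log2 fold change was 3.62 (interval 3.49 to 3.74). AGMAT, named for the splitting of agmatine, was at 1.80 with 1100 and 3319 counts. On the other side, NOS3, the endothelial nitric oxide synthase, had 53 and 20 counts, and CASTOR1, a cytosolic arginine sensor, had 23 and 7. Of the 12 tested genes of arginine products and sensing, 6 were above 1 and 2 below -1, against 10.2% and 16.5% of all genes, with a median of 0.77. With total counts these were 4 and 3, with a median of 0.50.

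Ornithine, the other product of arginase, leads to polyamines and proline. OAT, which links ornithine to glutamate semialdehyde, had 5497 and 10217 counts, so its log2 fold change was 1.10 (interval 1.06 to 1.15). ODC1, the first enzyme of polyamine synthesis, had 34754 and 30062 counts and a log2 fold change of 0.00 (-0.02 to 0.02). The polyamine-degrading genes SAT1 and SMOX were lower, at -1.59 and -1.72, with 11754 and 3376 counts of SAT1 and 2529 and 661 of SMOX.

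PRODH, proline dehydrogenase, had 23 and 2 counts, with an interval of -6.44 to -1.30 on the log2 scale. ALDH4A1, the next enzyme of proline breakdown, had 243 and 647 counts and was at 1.62. Of the 18 tested genes of this list 4 were above 1 and 3 below -1, against 10.2% and 16.5% of all genes. With total counts 1 was above 1, and the median of 0.20 became -0.07.

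Nitrogen enters the cycle as ammonia from glutamate and glutamine. GLUD1, mitochondrial glutamate dehydrogenase, had 2511 counts in MAEL WT and 5239 in MAEL KO, so its log2 fold change was 1.27. Its intronless copy GLUD2 was at 1.61, though reads can be split between these near-identical genes. CA5A, the mitochondrial carbonic anhydrase of liver that supplies bicarbonate to CPS1, had 1 and 25 counts, with an interval of 2.24 to 10.2 on the log2 scale. ASNS, asparagine synthetase, had 234 and 41 counts, so its log2 fold change was -2.28 (interval -2.82 to -1.82), and RHCG, an ammonium transporter, had 24 and 1. Of 15 tested genes 3 were above 1 and 5 below -1, against 10.2% and 16.5% of all genes, and the median was -0.22. With total counts 2 were above 1 and the median was -0.50.

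Aspartate brings the remaining nitrogen, and its list differed mostly in 1 direction. All 14 tested genes of the aspartate, fumarate and pyrimidine list were higher in MAEL KO, except that GOT1 and CAD turned lower with total counts. With TMM factors 48.0% of all genes tested were higher. The median of the list was 0.57, or 0.29 with total counts, and 4 genes were above 1 against 10.2% of all genes. FH, fumarase, which takes up the fumarate that ASL releases, had 1515 and 3265 counts, so its log2 fold change was 1.32 (interval 1.23 to 1.41). The glutamate and aspartate transporters SLC1A3 and SLC1A2 had 21 and 146 and 78 and 331 counts, or 2.95 and 2.28 on the log2 scale. CAD, which holds the cytosolic carbamoyl phosphate synthetase of pyrimidine synthesis, was at 0.24, and CPS1 exceeded it per length 24.2-fold in MAEL WT and 17.1-fold in MAEL KO.

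**Figure D4:**
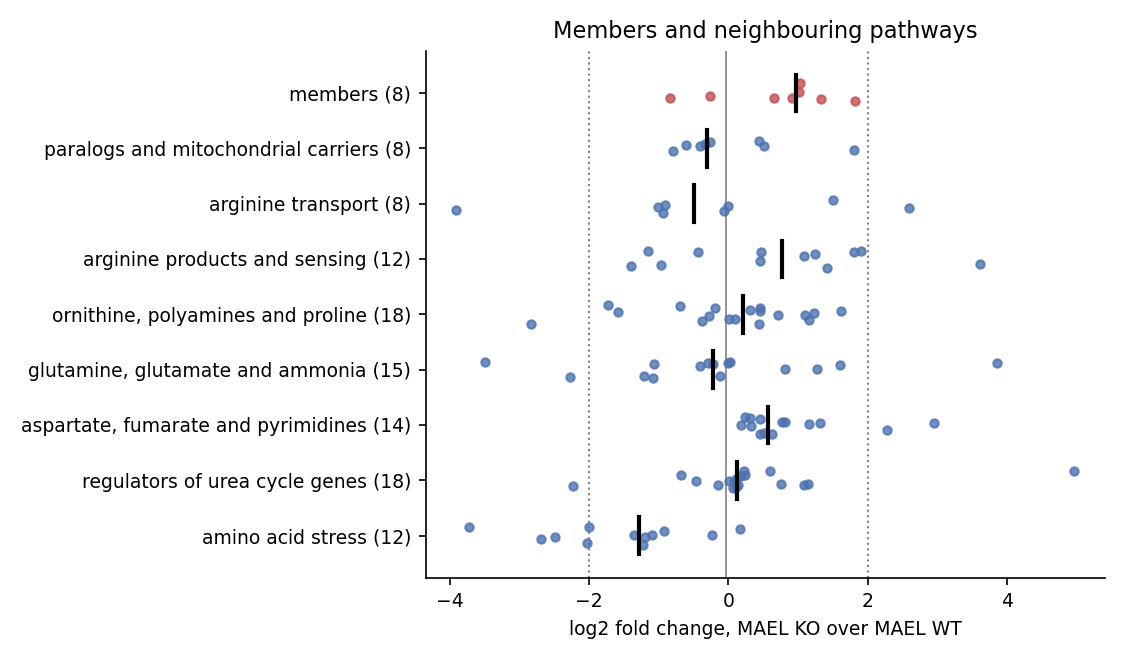
Points give the log2 fold change of MAEL KO over MAEL WT for the tested genes of each list, with their number in brackets; SLC7A3, at 0 in MAEL KO, is drawn at its fitted value. Black bars are list medians, the grey line is the median of all genes tested and dotted lines mark 2. The members' median is 0.96 and that of the amino acid stress genes -1.29.

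Known regulators of urea cycle genes, most of them transcription factors, differed among themselves. NR1H4, the bile acid receptor FXR, had 9 counts in MAEL WT and 270 in MAEL KO, so its log2 fold change was 4.96 (interval 4.17 to 6.26). HNF4A, the hepatocyte nuclear factor whose core letters occur in the OTC window, had 2816 and 5391 counts and was at 1.15 (1.08 to 1.21). PPARGC1A, a fasting coactivator, had 6 and 12 counts, and its interval on the log2 scale, -0.32 to 2.91, takes in both directions. CEBPB, a factor of the acute phase response, had 9375 and 1723 counts, so its log2 fold change was -2.23 (-2.31 to -2.16), and PPARA, a lipid-sensing receptor, and FOXA2, a hepatic pioneer factor, were at -0.68 and -0.46. Of 18 tested regulators 3 were above 1 and 1 below -1, against 10.2% and 16.5% of all genes. With total counts 1 was above 1 and the median went from 0.13 to -0.15.

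Of the 12 tested genes of the amino acid stress response, 11 were lower in MAEL KO, beside 52.0% of all genes. ATF5, at 0.16, was higher. CHAC1, which degrades glutathione, had 2016 counts in MAEL WT and 131 in MAEL KO, so its log2 fold change was -3.72, and SESN2, a leucine sensor, and ATF3 were at -2.69 and -2.48. In all 9 were below -1 against 16.5% of all genes, 0 were above 1, and the median was -1.29. ATF4, the factor that drives this response, was at -0.24, and ATF5 turned lower with total counts.

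Paralogs of the members and other mitochondrial carriers formed the last list. Of 8 tested, 3 were higher and 5 lower, beside 48.0% and 52.0% of all genes, with a median of -0.30. SLC25A10, the dicarboxylate carrier, had 192 and 583 counts and was at 1.81, and SLC25A29, a carrier of basic amino acids, had 1444 and 715 counts and was at -0.80.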

How the data were processed

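RNA of PLC8024 cells was profiled as 1 MAEL WT and 1 MAEL KO library. The authors deposited read counts per gene, whole numbers without normalization, and FPKM values, in which the authors divided the counts by the listed gene length and by library sizes 1.10 and 0.910 times the count totals. The submitters' processing notes name HISAT2 2.0.5, featureCounts 1.5.0-p3 and hg19. All 58735 identifiers and their coordinates match GENCODE 29 on GRCh38, so coordinates are given on GRCh38. The deposited tables were used whole. The strandedness of counting is not given in the sources used here.

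Groups were taken from the genotype labels. Counts were normalised by TMM factors, 1.10 and 0.909, from edgeR 4.0.16 in R 4.3.3, and fold changes were taken with pandas 2.3.3, NumPy 2.4.6 and SciPy 1.17.1 under Python 3.11.15. A gene was called tested, meaning that its fold change was computed, where either library had 10 or more counts, and 1 was added to normalised counts. No p-value is given, since 1 library per group leaves no replicate error. Plots were drawn with matplotlib 3.10.9. The steps were tested on simulated data. Alternatives were DESeq2 1.42.0 size factors, total counts, FPKM ratios with 0.01 added, and prior counts of 0.1 and 5. Others were minimum counts of 1 and 100, protein-coding genes only, counts of processed pseudogenes added and a log2 threshold of 1.

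The members and gene lists were chosen with earlier results of these data known, and the motifs after the promoter windows were seen. Genes named are the members, MAEL, their pseudogenes and overlapping genes with over 3 counts, up to 3 at each end of each list, and genes a member's result refers to. Outside that rule, further genes were named after their values were seen. ALB, EPCAM, LYZ, PECAM1, VIL1, SOX9, PAX8, COL3A1, SI, CD3E, PAX2, UMOD and PTPRC were named as cell type markers. ODC1, OAT and GAMT were named as neighbouring reactions, and ATF4 with them. Pseudogenes on the Y chromosome were left out of the sums. Promoter sequences are from RefSeq on GRCh38.p14, and protein sequences were not used here.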

Additional observations from a re-analysis of the deposited data

How the results depend on the processing

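No paired analysis was possible because each group is 1 library, and for the same reason no library could be left out. Depth limits OTC, GLS2, ARG1 and NAGS. Of 71 values of the members under the alternatives, 0 had another sign and 8 lay outside the counting interval, 6 of them with total counts and 2 with protein-coding genes only. The minimum counts of 1 and 100 only select genes, so their values equalled the main ones by construction. Pseudogene counts were added for processed pseudogenes only, and among the members only ASS1 had these. The value of ASS1 changed, and the other values equalled the main ones by construction. ASLP1, an unprocessed pseudogene, was not added to ASL. Past the log2 threshold of 2, counts over all genes were 387 higher and 1008 lower. A prior count of 5 gave 250 and 513. The counts were 1029 and 1773 with at least 1 count, 185 and 283 with at least 100 counts, 1827 and 2951 at a threshold of 1, and 254 higher with protein-coding genes only. Of the genes past the threshold of 2, 27.7% were higher. That share ran from 17.0% when scaled by total counts to 39.5% with at least 100 counts, and was 38.2% at a threshold of 1. At a threshold of 1 the members higher in MAEL KO went from 0 to 4. The genes of all the other lists together went from 6 to 23 higher and from 9 to 22 lower. The members above 1 numbered 3 with a prior count of 5, 3 with at least 100 counts, and 2 with protein-coding genes only, where 9.06%, 9.23% and 8.93% of all genes were. The causes were not tested.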
